A study of Mus musculus with 24 samples.

Results

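The vas deferens was compared across birth, between embryonic day 18.5 (E18.5) and postnatal day 1 (P1), with 2 arrays at each age, chosen by their tissue and age labels. These 4 arrays belong to a series of 24, in which total RNA from the efferent duct, epididymis and vas deferens was hybridised to Affymetrix mouse arrays at 4 ages. All samples came from male CD1 mice, an outbred strain, and the embryos were collected from pregnant females. Neither group carried a transgene or received a treatment in the labels. The labels do not say whether a sample held 1 animal or a pool, or whether the 2 samples of a group came from separate animals. P-values rest on the spread between samples of a group, pooled over the 12 groups of tissue and age in the series. That spread may therefore be technical.

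The vas deferens is the muscular tube that carries sperm from the epididymis to the urethra. It forms from the posterior Wolffian duct, an epithelial tube with mesenchyme around it that becomes smooth muscle under the influence of androgen. Its adult lining is a pseudostratified epithelium in which basal cells lie beneath tall principal cells. At birth the supply of oxygen passes from the placenta to the lungs. The hypoxia-inducible factors (HIF) are transcription factors that switch on glycolytic enzymes, glucose and lactate transporters and the regulators of their own degradation when oxygen is low.

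The deposited values are ratios of a probe set's signal to its median in the series of 24 arrays, and their log2 is used throughout. A value of 0 is the median of the series, so values of different genes cannot be compared as levels. All 4 vas deferens arrays stood apart from the other 20 in their signal toward the 5′ end of transcripts. The 5′ minus 3′ log2 difference of the Gapdh probe sets was -2.94 to -2.88 at E18.5 and -2.78 to -2.68 at P1, against -0.543 to 0.19 on the others. For Actb it was -1.95 to -1.78, -2.36 to -1.96 and -0.814 to 0.251 in the same order. Both ages thus lay on the same side of the gap, while comparisons of the vas deferens with other segments or earlier ages, in level or in change, cross it. As a check of the label, the mean of 14 posterior HOX genes was 0.699 to 0.756 on these 4 arrays. It was 0.173 to 0.246 on the 4 epididymis arrays and -1.34 to -1.21 on the 4 efferent duct arrays of the same ages. This check too compares levels across the gap in 5′ signal.

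Of 18193 genes, 98 were higher at P1 (0.539%) and 97 lower (0.533%) at an adjusted p below 0.05 in limma, a linear model fitted to all 24 arrays. Among these, 27 rose and 19 fell by 2-fold or more. The median change of all genes was 0.0032. In each of the 195 genes the arrays of the ages did not overlap. Of all 18193 genes, 3823 were separated in this way with P1 higher and 3590 with P1 lower. The calls come from the same values, so the lack of overlap adds no separate support. Leaving out single arrays changed the count, to 60 without E18.5 replicate 2, 80 without P1 replicate 1, 98 without E18.5 replicate 1 and 211 without P1 replicate 2. Quantile normalization left 29 genes, 20 higher and 9 lower, and a covariate for the Gapdh 5′ signal gave 555, with 203 higher and 352 lower.

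**Figure D1:**
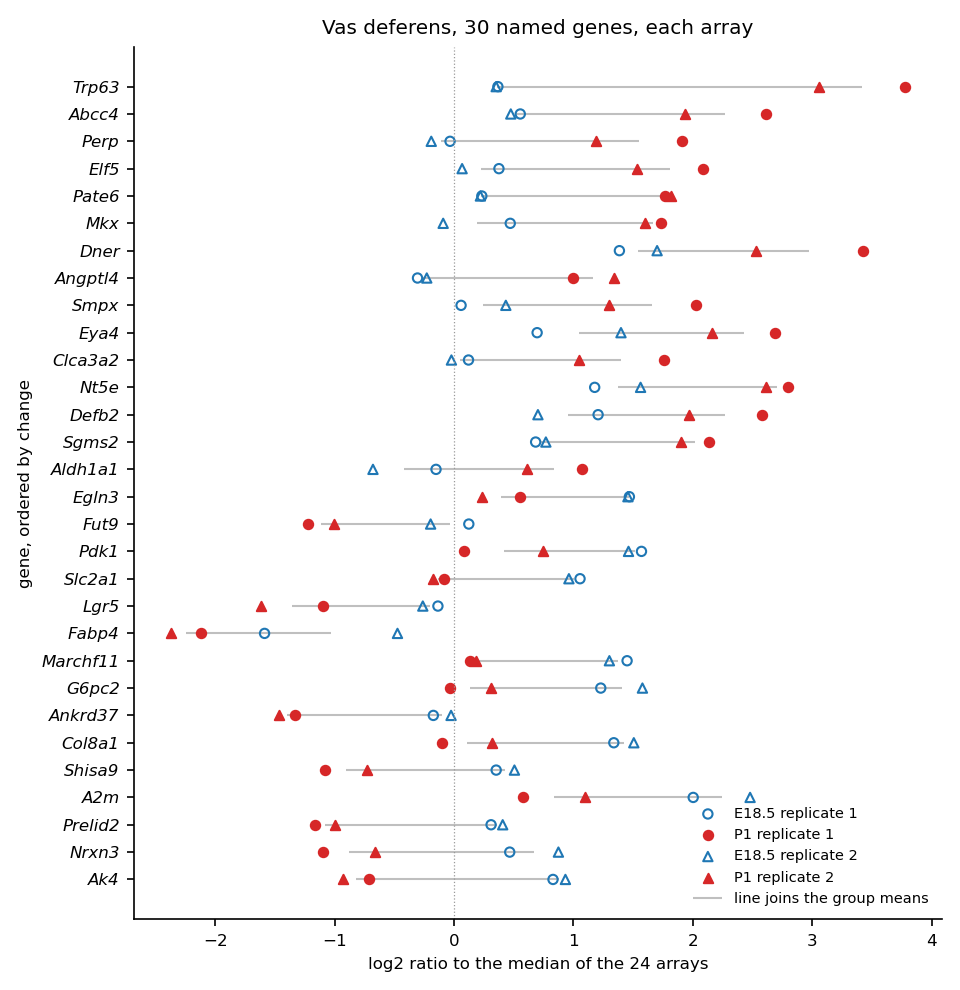
Log2 ratio of the 15 genes with the largest rise and the 15 with the largest fall in the vas deferens, on each of the 4 arrays (circles replicate 1, triangles replicate 2; open blue E18.5, filled red P1). The grey line joins the group means. Trp63 has the longest line, and no row has overlapping ages.

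Trp63, the transcription factor on which basal cells of stratified and pseudostratified epithelia depend, rose most. Its log2 ratio was 0.37 and 0.35 at E18.5 and 3.78 and 3.05 at P1. Both P1 arrays were far above the E18.5 arrays, and the highest of the 22 arrays outside vas deferens P1 read 0.42. The change was 3.06 ± 0.19 (SE), 8.32-fold, with an adjusted p of 9.82e-08 in limma. It was seen by 1 of the 4 probe sets that name Trp63. The other 3 changed by -0.17, -0.11 and 0.29, and none of them was called. When the probe set was chosen by its variance over the 20 other arrays, Trp63 changed by 0.29 (adjusted p = 0.577).

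Perp, a desmosome component and a known target of the factor encoded by Trp63, read -0.03 and -0.19 at E18.5 and 1.91 and 1.19 at P1. It rose by 1.66 ± 0.24, 3.17-fold (adjusted p = 0.0011 in limma), and has 1 probe set. In the efferent duct Perp was already at 2.10 and 1.79 at E18.5 and at 2.38 and 1.92 at P1, levels that lie across the gap in 5′ signal from those of the vas deferens. Elf5, an ETS factor of epithelial differentiation, went from 0.38 and 0.07 to 2.09 and 1.53, a rise of 1.59 ± 0.18 (adjusted p = 0.000154). Its other probe set changed by -0.03.

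Of the 35 measured genes of epithelial adhesion and keratins, 3 rose and 0 fell, where 0.539% of all genes rose and 0.533% fell. The median change of the list was 0.167 against 0.0032 over all genes. Besides Perp these were the tight junction proteins Cldn3 (0.85 ± 0.12, adjusted p = 0.000925) and Cldn4 (0.58 ± 0.14, adjusted p = 0.0491). Cldn3 moved together on several probe sets, with 2 of its other 3 also called (0.60 and 0.74). The call for Cldn4 was lost without either E18.5 array (0.44 without replicate 1 and 0.73 without replicate 2) or without P1 replicate 1 (0.36). Keratins that mark basal cells did not pass the test. Krt5 changed by -0.10, Krt15 by -0.07, Krt17 by -0.09 and Krt14 by 0.44 (adjusted p = 0.14). Cdh1, the cadherin of epithelial junctions, changed by 0.34 (adjusted p = 0.75) and the desmosomal Dsp by 0.52 (adjusted p = 0.383).

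Abcc4, an efflux pump for cyclic nucleotides and prostaglandins, went from 0.55 and 0.47 to 2.61 and 1.94. Its rise was 1.76 ± 0.19, 3.38-fold (adjusted p = 0.000106 in limma), the second in size. Pate6, of a family of small secreted proteins of the male tract, read 0.23 and 0.22 at E18.5 and 1.77 and 1.82 at P1. The replicates lay close together at both ages. It rose by 1.57 ± 0.14 (adjusted p = 1.96e-05).

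Of 26 measured secreted proteins of the adult duct, 3 rose and 0 fell (median 0.0657), where 0.539% of all genes rose. The beta-defensin Defb2, an antimicrobial peptide, rose from 1.21 and 0.70 to 2.58 and 1.97. This is a change of 1.32 ± 0.24 (adjusted p = 0.00785), which was no longer called without E18.5 replicate 2 (1.07) or P1 replicate 1 (1.01). Spink8, a protease inhibitor, rose by 1.13 ± 0.20 (adjusted p = 0.0081) and lost the call without the same arrays (0.94 and 0.80). Defb42, a further beta-defensin, rose by 0.58 ± 0.14 (adjusted p = 0.048), and its call was lost when any 1 of the 4 arrays was left out (0.53 to 0.64). In ion and water transport, 1 of 34 measured genes was called, against the same 0.539%. It was Fxyd3, a regulator of the sodium pump, at 0.86 ± 0.17 (adjusted p = 0.0131), and it too lost the call without any 1 array (0.80 to 0.91).

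Other rises of the first 15 came from several processes. Nt5e, the surface enzyme that makes adenosine from AMP, went from 1.18 and 1.56 to 2.80 and 2.61, a rise of 1.34 ± 0.18 (adjusted p = 0.00073 in limma). Its other 2 probe sets changed by 0.32 and 0.20 and were not called. Sgms2, a sphingomyelin synthase, rose by 1.29 ± 0.17 (adjusted p = 0.00061), with its other probe set at 0.04. Clca3a2, of the family of chloride channel accessory proteins, rose by 1.35 ± 0.16 on one probe set and by 0.38 on its other, which was not called. Dner, a transmembrane protein with EGF-like repeats, stood out because both of its probe sets rose, by 1.43 and 1.21. Mkx, a homeobox factor of tendon and other connective tissue, rose by 1.48 ± 0.22 (adjusted p = 0.00146; 1.20 and not called without E18.5 replicate 2). Smpx, a small protein of striated muscle, rose by 1.42 ± 0.23 (adjusted p = 0.00379) and was not called without E18.5 replicate 1 (1.23) or P1 replicate 1 (1.05). The same arrays ended the call for Eya4, a transcriptional coactivator (1.38 ± 0.23, then 1.03 and 1.12), whose other 3 probe sets changed by -0.09 to 0.13.

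Aldh1a1, which makes retinoic acid from retinal, rose from -0.15 and -0.68 to 1.07 and 0.61 (1.26 ± 0.26, adjusted p = 0.0198 in limma). Its call was lost without E18.5 replicate 2 (0.99) or P1 replicate 1 (1.02). Aldh1a2, an enzyme of the same reaction that also marks mesothelium and mesenchyme, fell by 0.77 on the log2 scale (adjusted p = 0.00978). It went from -0.04 and 0.10 to -0.83 and -0.65, and was not called without the same 2 arrays (-0.70 and -0.68). The retinoid pair thus moved in opposite directions, while the other 17 of 19 measured genes of retinoid metabolism were not called. Of all genes 0.539% rose and 0.533% fell.

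Of the 27 measured genes in the list of hypoxia response and glycolysis, 16 fell and 0 rose, against 0.533% of all genes called lower. This list, like the others, was chosen with earlier results of these data known. Its median change was -0.662. In 23 of its members both P1 arrays lay below both E18.5 arrays, as they did in 3590 of all 18193 genes. The mean of the list was -0.10 and -0.04 on the E18.5 arrays and -0.73 and -0.64 on the P1 arrays. In each of the 4 cases of leaving out 1 array the list kept called members, from 7 (without E18.5 replicate 2) through 10 (without P1 replicate 1) and 12 (without E18.5 replicate 1) to 14 (without P1 replicate 2). Quantile normalization left 4.

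The bases before the transcription starts of these genes are shown because HIF binds the short sequence ACGTG, or less often GCGTG. Each window runs from 250 bases before to 50 after the start, on the strand of the gene, in assembly GRCm38.p6 of RefSeq. Capitals mark ACGTG and GCGTG on either strand, where the other strand reads CACGT and CACGC, and ACGTG is also part of the longer E-box CACGTG. The members shown are the 3 with the largest falls among those called in all 3 segments with 1 window in the table, then Pgk1, and Tpi1 as a member without a match.
Ankrd37 (chr8:45999801-46000100, minus strand): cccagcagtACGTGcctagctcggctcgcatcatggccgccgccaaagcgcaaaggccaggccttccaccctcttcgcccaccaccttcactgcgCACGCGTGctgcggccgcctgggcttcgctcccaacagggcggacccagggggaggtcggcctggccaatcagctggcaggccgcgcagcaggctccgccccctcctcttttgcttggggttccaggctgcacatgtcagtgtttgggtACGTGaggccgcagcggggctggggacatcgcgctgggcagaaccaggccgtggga
Slc2a1 (chr4:119108495-119108794, plus strand): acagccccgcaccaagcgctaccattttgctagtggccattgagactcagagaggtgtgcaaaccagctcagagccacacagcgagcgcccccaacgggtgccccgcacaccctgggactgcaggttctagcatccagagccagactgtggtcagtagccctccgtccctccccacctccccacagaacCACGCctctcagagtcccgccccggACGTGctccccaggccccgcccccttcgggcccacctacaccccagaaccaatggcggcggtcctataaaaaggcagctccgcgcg
Egln3 (chr12:54203825-54204124, minus strand): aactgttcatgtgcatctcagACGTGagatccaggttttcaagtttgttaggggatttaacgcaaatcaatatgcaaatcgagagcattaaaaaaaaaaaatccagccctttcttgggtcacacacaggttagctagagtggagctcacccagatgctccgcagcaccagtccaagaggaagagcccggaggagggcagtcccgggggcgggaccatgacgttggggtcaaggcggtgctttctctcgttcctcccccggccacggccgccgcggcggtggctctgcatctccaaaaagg
Pgk1 (chrX:106186850-106187149, plus strand): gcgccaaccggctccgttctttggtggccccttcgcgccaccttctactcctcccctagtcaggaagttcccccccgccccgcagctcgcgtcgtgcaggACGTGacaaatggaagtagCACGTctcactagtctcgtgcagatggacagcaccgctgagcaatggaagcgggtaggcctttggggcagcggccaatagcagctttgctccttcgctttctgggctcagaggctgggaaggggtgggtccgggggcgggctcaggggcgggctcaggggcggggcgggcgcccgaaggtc
Tpi1 (chr6:124814109-124814408, minus strand): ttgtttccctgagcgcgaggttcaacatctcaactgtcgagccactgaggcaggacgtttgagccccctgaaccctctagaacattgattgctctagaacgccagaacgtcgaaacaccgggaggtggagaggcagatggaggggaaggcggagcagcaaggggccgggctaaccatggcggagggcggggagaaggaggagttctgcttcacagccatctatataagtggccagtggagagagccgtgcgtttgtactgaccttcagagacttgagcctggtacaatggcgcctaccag

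Of the 38 windows that the table holds for 26 genes of the list, 22 (57.9%) held ACGTG, against 19.6% of all 32851 windows. GCGTG was in 19 (50%) against 32.4%. For the 16 genes that fell, 13 of 23 windows (56.5%) held ACGTG. These are matches of letters only. The list was chosen for the HIF response, so its share is a property of the list and not of the change at birth.

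Slc2a1, the glucose transporter of the cell surface, read 1.05 and 0.96 at E18.5 and -0.09 and -0.18 at P1. It fell by 1.14 on the log2 scale, 2.20-fold (SE 0.14, adjusted p = 0.000263 in limma), and its other 2 probe sets fell alike, by 1.16 and by 1.19. Slc16a3, which exports lactate, fell by 0.90 ± 0.17 (adjusted p = 0.0123), a call lost without any 1 array (-0.97 to -0.84).

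Glycolytic enzymes fell at several steps. Ldha, which turns pyruvate into lactate, went from -0.89 and -0.82 to -2.09 and -1.56, a change of -0.97 ± 0.13 (adjusted p = 0.000691 in limma). Hk2, the hexokinase of the first step, changed by -0.89 (adjusted p = 0.0033), Aldoa by -0.88 (adjusted p = 0.00338) and Pfkl by -0.74 (adjusted p = 0.0177). Pgk1 changed by -0.79, Tpi1 by -0.70 and Pgam1 by -0.66. Pdk1, the kinase that closes the entry of pyruvate into mitochondria, went from 1.57 and 1.46 to 0.09 and 0.75 (-1.10 ± 0.20, adjusted p = 0.0081), and its other 3 probe sets changed by -0.47, -0.40 and -0.82, of which the last was called. Some of these calls rested on single arrays. Hk2 (-0.85) and Pgam1 (-0.59) were not called without E18.5 replicate 2, Aldoa without that array (-0.79) or P1 replicate 1 (-0.65), Pfkl without any 1 array (-0.83 to -0.66), and Pdk1 without E18.5 replicate 1 (-1.04), E18.5 replicate 2 (-1.15) or P1 replicate 1 (-0.77). With the probe set chosen over the 20 other arrays, Pgk1 (-0.20) and Pdk1 (-0.47) were not called, nor was Pgk1 with the mean of its probe sets (-0.40). Hk1, Pfkp, Aldoc and Pkm did not pass, at -0.11, 0.11, -0.15 and -0.48.

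Regulators and other targets of HIF fell too. Egln3, a prolyl hydroxylase that marks HIF for degradation and is itself induced by it, was at 1.47 and 1.46 at E18.5 and at 0.55 and 0.24 at P1 (-1.07 ± 0.16, adjusted p = 0.00132 in limma), with its other probe set at -0.22 and not called. Ankrd37, an ankyrin repeat protein, went from -0.17 and -0.03 to -1.33 and -1.47 (-1.30 ± 0.15, 2.46-fold, adjusted p = 0.000168). Bnip3, a mitochondrial protein of mitophagy, changed by -0.89 (adjusted p = 0.000558). Egln1, the main HIF hydroxylase, changed by -0.60 and Kdm3a, a histone demethylase, by -0.50. Vegfa, the growth factor of blood vessels, went from 0.50 and 0.72 to -0.33 and -0.12 (-0.84 ± 0.14, adjusted p = 0.00429). Vegfa was not called without E18.5 replicate 2 (-0.73) or P1 replicate 1 (-0.73), Egln1 not without E18.5 replicate 2 (-0.59), and Kdm3a not without any 1 array (-0.52 to -0.48). Adm and Car9, which HIF also induces, changed by 0.16 and 0.13 and were not called.

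Ak4, a mitochondrial adenylate kinase outside the list, had the largest fall of all genes. It read 0.83 and 0.93 at E18.5 and -0.72 and -0.93 at P1, a change of -1.70 ± 0.14, 3.26-fold (adjusted p = 8.4e-06 in limma). One other probe set of Ak4 was called at -1.25, and 3 lay between -0.01 and 0.04.

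**Figure D2:**
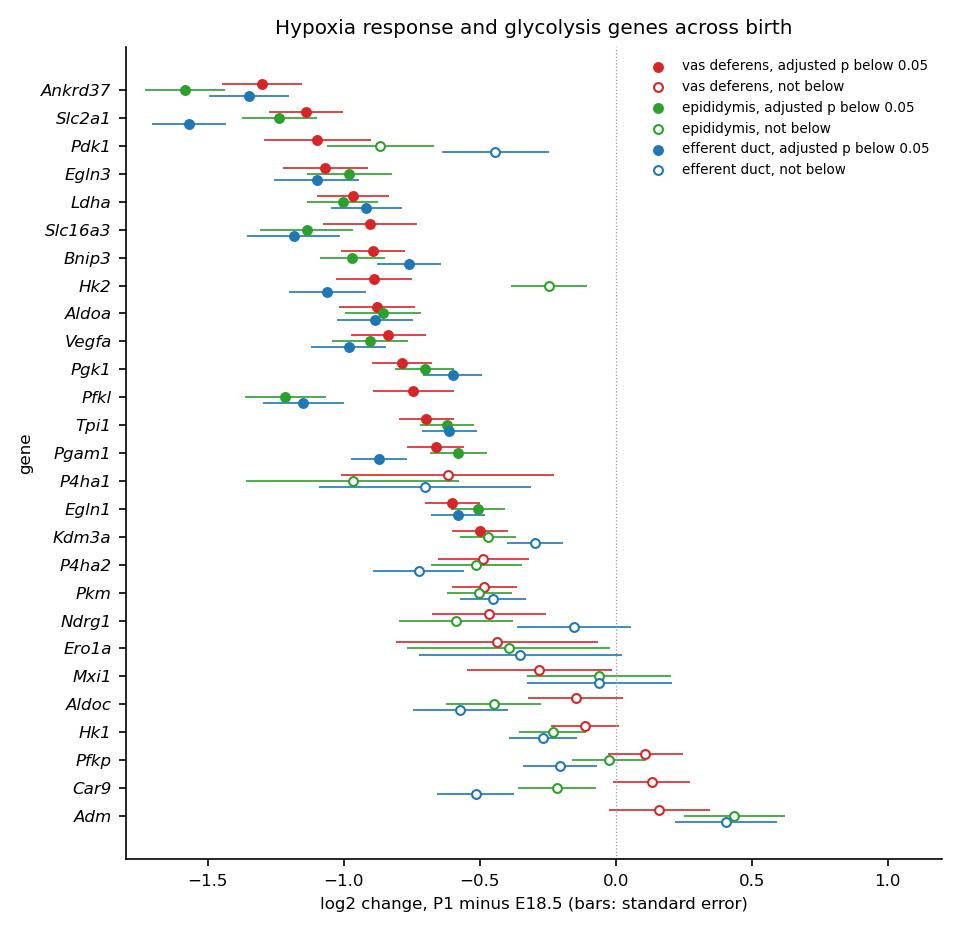
Log2 change from E18.5 to P1 of the 27 measured genes of hypoxia response and glycolysis in the vas deferens (red), epididymis (green) and efferent duct (blue). Bars are standard errors of the fit, and filled points have an adjusted p below 0.05. Most points of all 3 colours lie left of 0 and close together, with Hk2 in the epididymis and Pdk1 in the efferent duct nearer to 0.

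The same list fell in the other segments. In the epididymis 13 of the 27 were called lower, against 0.154% of all genes, with a median change of -0.588. In the efferent duct 14 were called lower, against 0.187%, with a median of -0.611. In all, 13 members were called in each of the 3 segments, as were 16 of all 18193 genes in the lower direction. A negative change in each segment was seen in 24 members. Of all genes, 8983 had a negative change in the vas deferens, 7990 in the epididymis and 8613 in the efferent duct. The difference between the change in the vas deferens and that in another segment was tested for every gene and passed for 0 of the 27, with smallest adjusted p-values of 0.561 against the epididymis and 0.457 against the efferent duct in limma. At an unadjusted p below 0.05 in limma it passed for 2 and 3 of them, where 864 and 1180 of all 18193 genes passed. Over the 16 members called in the vas deferens these differences ran from -0.64 (Hk2) to 0.47 (Pfkl) against the epididymis and from -0.66 (Pdk1) to 0.43 (Slc2a1) against the efferent duct, with standard errors of 0.142 to 0.279. A test that misses the threshold does not show that the segments changed alike.

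Across the genome, 16 genes fell and 4 rose in all 3 segments by the same test. The falls included Ak4, Ankrd37, Slc2a1, Egln3, Ldha, Slc16a3, Bnip3, Aldoa, Vegfa, Pgk1, Pfkl, Tpi1, Pgam1 and Egln1, and the others were Dubr and Senp6. The rises were Angptl4, Cirbp, Mfap5 and 1500011B03Rik, against 0.214% of genes called higher in the epididymis and 0.346% in the efferent duct. Angptl4, a secreted inhibitor of lipoprotein lipase that fatty acids and glucocorticoids induce, went from -0.31 and -0.23 to 0.99 and 1.34 in the vas deferens. It rose there by 1.43 ± 0.19 (adjusted p = 0.000517), by 1.83 in the epididymis and by 2.20 in the efferent duct, while its other probe set rose by 0.23 and was not called in the vas deferens. Cirbp, a cold-inducible RNA-binding protein named here after its values were seen, went from -0.69 and -0.52 to 0.20 and 0.64. Its changes were 1.03 (adjusted p = 0.0207), 1.64 and 1.84 in the 3 segments, and in the vas deferens the call was lost without E18.5 replicate 1 (0.94), E18.5 replicate 2 (1.12) or P1 replicate 2 (0.81). Mfap5, a microfibril protein, rose by 0.69, 1.20 and 1.12. In the vas deferens it was the 1 called gene of 30 measured in interstitial matrix and elastic fibres, where 0.539% of all genes rose. Its other probe set changed by 0.45 in the vas deferens and was not called. In the vas deferens it was not called without either E18.5 array (0.52 and 0.86) or P1 replicate 1 (0.56).

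**Figure D3:**
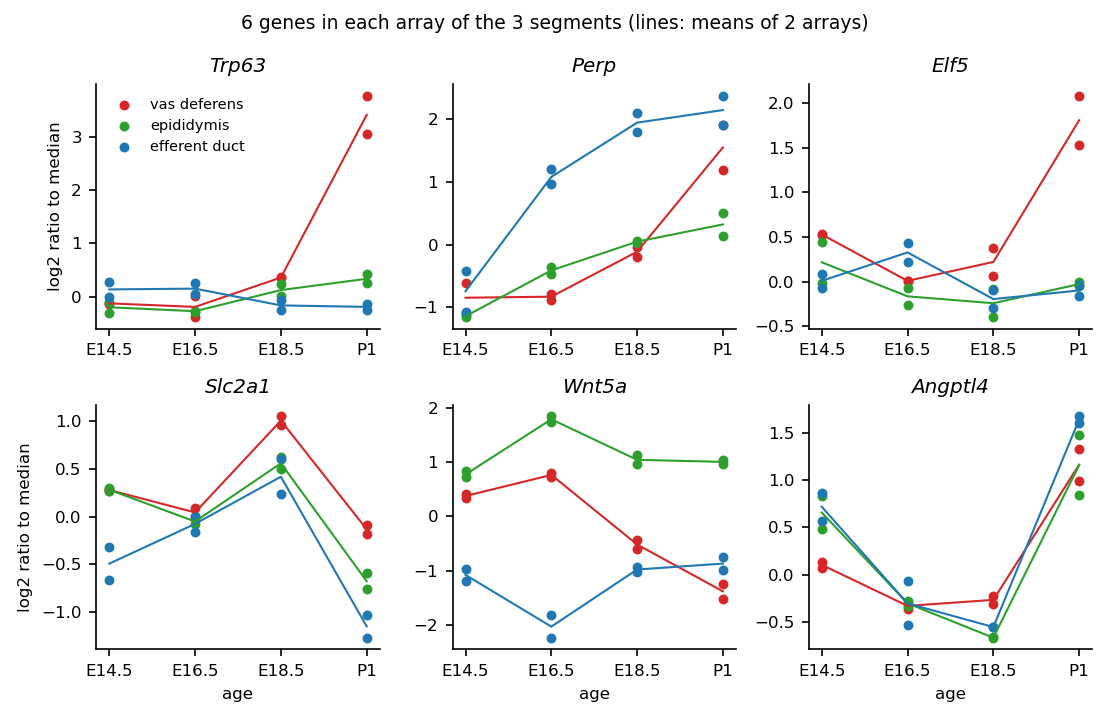
Log2 ratio of Trp63, Perp, Elf5, Slc2a1, Wnt5a and Angptl4 on each of the 24 arrays by age, with vas deferens in red, epididymis in green and efferent duct in blue, and lines through the means of 2 arrays. Each gene is shown by its probe set of largest variance over the 24 arrays. On these probe sets Trp63 and Elf5 leave the range of the other arrays at P1 in the vas deferens. That choice used the P1 arrays, so it adds no support, and no other probe set of Trp63 or Elf5 was called. Slc2a1 falls and Angptl4 rises from E18.5 to P1 in every segment. Levels of the late vas deferens arrays carry the low 5′ signal.

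Nrxn3, a presynaptic adhesion protein, went from 0.47 and 0.87 to -1.10 and -0.66, a change of -1.55 ± 0.20 (adjusted p = 0.000558 in limma), and 1 of its other 4 probe sets was called at -1.18. Shisa9, an auxiliary protein of AMPA receptors, changed by -1.33 ± 0.19 (adjusted p = 0.000887), with other probe sets at 0.20 and -0.30. The GABA receptor subunits Gabra4 and Gabrb1 changed by -1.02 (adjusted p = 0.0102) and -0.87 (adjusted p = 0.000558), and Gad1, which makes GABA, by -0.61 (adjusted p = 0.0476). None of their other probe sets was called. That of Gabra4 changed by -0.37, those of Gabrb1 by -0.25, -0.32 and -0.07, and that of Gad1 by 0.16. With the mean of its probe sets Gad1 changed by -0.22 (adjusted p = 0.488 in limma), and Shisa9 by -0.48 (adjusted p = 0.0951). These GABA genes lay below the series median at both ages, and Gabra4 was not called without E18.5 replicate 1 (-0.99), E18.5 replicate 2 (-1.06) or P1 replicate 1 (-1.0), nor Gad1 without the same arrays (-0.55, -0.66 and -0.43). Of the marker list of neural and Schwann cells 0 of 16 were called, where 0.539% of all genes rose and 0.533% fell. At an unadjusted p below 0.05 in limma 1 of the 16 passed, where 10.5% of all genes did. The median of the list was 0.0066.

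A2m, the plasma protease inhibitor alpha-2-macroglobulin, was the fall with the highest starting value relative to the series, from 2.0 and 2.48 to 0.58 and 1.09 (-1.40 ± 0.18, adjusted p = 0.000517 in limma). G6pc2, of the glucose-6-phosphatase family, went from 1.23 and 1.58 to -0.04 and 0.31 (-1.27 ± 0.15, adjusted p = 0.000233). Marchf11, a membrane-bound ubiquitin ligase, went from 1.45 and 1.30 to 0.14 and 0.18, a change of -1.22 ± 0.11 (adjusted p = 1.96e-05) with close replicates. Prelid2 changed by -1.44 ± 0.18 (adjusted p = 0.000345) on one probe set and by -0.20 on its other. Fut9, a fucosyltransferase, changed by -1.08 ± 0.18 (adjusted p = 0.00379), a call lost without E18.5 replicate 1 (-0.92) or P1 replicate 1 (-0.97). Its other 2 probe sets changed by -0.10 and 0.04, and the mean of its probe sets by -0.38 (adjusted p = 0.429). Col8a1, a short-chain collagen, changed by -1.32 ± 0.23 (adjusted p = 0.00561) with another probe set called at -0.94, and was not called without E18.5 replicate 2 (-1.23) or P1 replicate 1 (-1.11).

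Of 42 measured genes of WNT signalling, 2 fell and 0 rose (median -0.0784), where 0.533% of all genes fell. Lgr5, the receptor for R-spondins that marks epithelial stem cells in several organs, went from -0.14 and -0.26 to -1.10 and -1.62 (-1.16 ± 0.20, adjusted p = 0.00537 in limma), with its other probe set at -0.29 and not called. Wnt5a, a mesenchymal ligand needed for the outgrowth of posterior structures, went from -0.44 and -0.59 to -1.52 and -1.24 (-0.86 ± 0.14, adjusted p = 0.00379). All 4 probe sets of Wnt5a had a negative change, of which 1 was called. Lgr5 was not called without E18.5 replicate 1 (-1.10) or P1 replicate 2 (-0.90), and Wnt5a not without E18.5 replicate 1 (-0.79) or P1 replicate 1 (-0.72). Inhba, the activin subunit needed for the coiling of the epididymal duct, was the 1 called of 34 genes of BMP and TGF-beta signalling, at -0.77 ± 0.16 (adjusted p = 0.0183). It lost the call without either E18.5 array (-0.80 and -0.73) or P1 replicate 1 (-0.56), and its other probe set changed by 0.02.

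Lhx1, a transcription factor of the early Wolffian duct, fell with both probe sets, by 1.04 (adjusted p = 0.0296 in limma) and by 1.01. Together with Trp63 it made 2 called of 17 measured duct transcription factors, where 0.539% of all genes rose and 0.533% fell. Its call was lost without either E18.5 array (-1.01 and -1.07) or P1 replicate 2 (-0.72). Spred1, an inhibitor of FGF signalling, was the 1 called of 25 in that list (-1.02, adjusted p = 0.0401), though its 7 other probe sets changed by -0.46 to 0.20 and the call was lost without either E18.5 array (-1.12 and -0.92) or P1 replicate 1 (-0.62). Igfbp1, a binding protein of insulin-like growth factors, changed by -0.85 ± 0.16 (adjusted p = 0.0131 in limma) as the 1 called of 20 in the IGF list. Any 1 array left out ended that call (-0.94 to -0.75).

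Glucocorticoids surge before birth, and of 20 genes known to respond to them 3 rose and 2 fell, with a median of -0.0275, where 0.539% of all genes rose and 0.533% fell. Besides Angptl4 the rises were the metallothionein Mt1 (0.83, adjusted p = 0.028 in limma) and Nfkbia, an inhibitor of NF-kappa-B (0.47, adjusted p = 0.0402). The falls were Ddit4, an inhibitor of growth signalling (-0.93 ± 0.13, adjusted p = 0.00117 in limma), and the cell cycle inhibitor Cdkn1a (-0.75, adjusted p = 0.0401). Ddit4 read 0.55 and 0.82 at E18.5 and -0.12 and -0.38 at P1. Mt1 was not called without either E18.5 array (0.80 and 0.85) or P1 replicate 1 (0.49), Cdkn1a not without either E18.5 array (-0.83 and -0.68) or P1 replicate 1 (-0.59), and Nfkbia not without any 1 array (0.42 to 0.51). The other probe sets of Mt1 and Cdkn1a changed by -0.02 and 0.12, and the 4 of Nfkbia by -0.03 to 0.34. With the mean of their probe sets Mt1 (0.405, adjusted p = 0.0973), Cdkn1a (-0.32, adjusted p = 0.464) and Nfkbia (0.25, adjusted p = 0.282) were not called. Gstm2, a glutathione transferase of the list of antioxidant defence, where 2 of 26 rose against 0.539% of all genes, went from -2.58 and -2.52 to -1.45 and -1.68 (0.98 ± 0.13, adjusted p = 0.000467).

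Many lists held no called gene. They were smooth muscle (0 of 26, median 0.0524), basement membrane (0 of 24, -0.039), posterior HOX genes (0 of 14, -0.024), steroid receptors and 5-alpha reductases (0 of 9, 0.0229), the circadian clock (0 of 19, 0.0396) and immediate early genes (0 of 25, -0.0585). Likewise 0 were called in oxidative phosphorylation (24 measured, 0.041), cholesterol synthesis (20, 0.0179), heat shock and unfolded protein response (22, -0.0343), imprinted growth genes (21, -0.179), hedgehog and Notch signalling (24, -0.161), antigen presentation and interferon response (22, 0.0264) and motile cilia (26, 0.0171). At an unadjusted p below 0.05 in limma these lists held from 0 genes (antigen presentation) to 6 (hedgehog and Notch), where 10.5% of all genes passed. Actg2, the enteric smooth muscle actin, changed by -0.67 (adjusted p = 0.383) and the clock gene Arntl by 0.48 (adjusted p = 0.0641), the latter close to the threshold. In fatty acid oxidation and PPAR targets 1 of 21 was called, Angptl4 (median -0.0189), where 0.539% of all genes rose. In the cell cycle 1 of 34 was called, the mitotic kinase Bub1 (0.65, adjusted p = 0.00851), whose other probe set changed by -0.48, with a list median of -0.116. It was not called without E18.5 replicate 2 (0.56) or P1 replicate 2 (0.55). In antimicrobial and acute phase genes 1 of 25 was called, Nfkbia (median -0.0617).

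Markers of other cells were read as lists, since in bulk tissue fewer cells of a type and less RNA per cell cannot be told apart. Endothelial markers had a median of -0.312, with 14 of 19 negative and 1 called lower, where 0.533% of all genes fell. It was Flt1, a receptor for the product of Vegfa. Flt1 went from 1.48 and 1.70 to 0.74 and 0.65 (-0.90 ± 0.17, adjusted p = 0.0118 in limma), and 2 of its other 3 probe sets were called at -1.17 and -1.08. The mean of the endothelial list was 0.38 and 0.55 on the E18.5 arrays and 0.14 and 0.36 on the P1 arrays, so the list means of the ages did not overlap by a small margin. At an unadjusted p below 0.05 in limma 5 of the 19 markers were lower and 0 higher, where 10.5% of all genes passed in either direction. Kdr and Emcn, also of the list, changed by 0.02 and 0.00. The part of the endothelial cells in the change of Vegfa, Flt1 and the HIF list was not tested. Flt1 was not called without E18.5 replicate 2 (-0.79), P1 replicate 1 (-0.95) or P1 replicate 2 (-0.85).

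For the lists that follow, 0.539% of all genes rose and 0.533% fell. The erythroid list (14 measured, median -0.113) held 1 called gene, Alas2 of haem synthesis (-0.74, adjusted p = 0.0346 in limma), which lost the call without E18.5 replicate 1 (-0.55), E18.5 replicate 2 (-0.93) or P1 replicate 1 (-0.55). Changes in the erythroid list ran from -1.17 to 0.241, with 9 of 14 negative. At an unadjusted p below 0.05 in limma 2 were lower and 0 higher. Hba-a1, an adult globin, changed by 0.04. Fabp4, a fatty acid binding protein of adipocytes, capillaries and macrophages, was the 1 called of 12 adipocyte markers, and its values were -1.59 and -0.48 at E18.5 and -2.12 and -2.37 at P1. The E18.5 arrays differed by more than 1 log2 unit. Its change of -1.21 (adjusted p = 0.0207) was not called without E18.5 replicate 2 (-0.66), P1 replicate 1 (-1.34) or P1 replicate 2 (-1.09). Its other 3 probe sets changed by 0.02, -0.20 and -0.66 and were not called, and Adipoq changed by 0.13. Of 9 mesothelial markers Msln (1.17, adjusted p = 0.00379) and Gpm6a (1.05, adjusted p = 0.0429) rose and Aldh1a2 fell, while Upk3b, Wt1, Lrrn4 and Bnc1 changed by 0.27, -0.33, -0.37 and -0.35 and were not called. Msln was not called without E18.5 replicate 1 (0.98), nor Gpm6a without any 1 array (0.91 to 1.18). Dpep1, a dipeptidase, was the 1 called of 18 fibroblast and mesenchyme markers (0.91 ± 0.14, adjusted p = 0.00311; 0.80 and not called without E18.5 replicate 1; 0.16 on its other probe set), in a list with a median of -0.137. Markers of macrophages and leukocytes (20), mast cells and neutrophils (17), Sertoli and Leydig cells (12), germ cells (10), skeletal muscle (19) and kidney and urothelium (15) held 0 called genes, with medians of 0.142, 0.176, 0.0425, 0.0915, 0.106 and 0.107. At an unadjusted p below 0.05 in limma they held 3, 4, 1, 1, 5 and 3 genes, where 10.5% of all genes passed.

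The question of which changes differed between segments was put to the difference itself. Against the epididymis 5 of 18193 genes passed (0.0275%) and against the efferent duct 19 (0.104%). Each difference sets a vas deferens change against one measured across the gap in 5′ signal. The interquartile range of log2 values was 0.384 to 0.429 on the vas deferens arrays at E18.5 and P1. It was 0.177 to 0.214 on those of the epididymis and 0.199 to 0.265 on those of the efferent duct. Quantile normalization, which evens out this spread, raised the count against the epididymis and lowered the other. Whether the spread was the cause was not tested. Of the 98 genes that rose in the vas deferens, 8 were also called higher in the epididymis and 9 in the efferent duct, where 0.214% and 0.346% of all genes were, and 85 in neither. Of the 97 that fell, 22 and 18 were called lower there, where 0.154% and 0.187% of all genes were, and 73 in neither. The difference from the epididymis passed for 2 of the rises and 3 of the falls, and that from the efferent duct for 10 and 7. By sign alone, 83 and 75 of the 98 rises and 78 and 75 of the 97 falls went the same way in the epididymis and efferent duct. Of all 18193 genes, 10203 and 9580 had a positive change in those segments, and 7990 and 8613 a negative one.

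**Figure D4:**
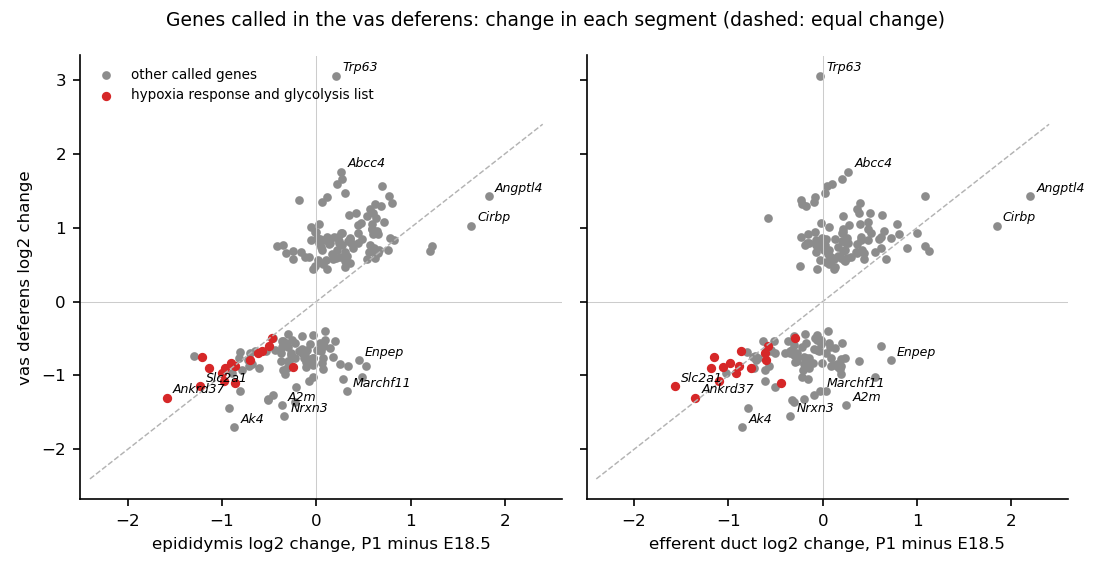
Log2 change from E18.5 to P1 in the vas deferens (vertical axis) against that in the epididymis (left) and efferent duct (right) for the 195 genes called in the vas deferens. Red points are the hypoxia response and glycolysis list and the dashed line marks equal change; most red points lie near the line, while Trp63 lies far above it in both panels.

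Trp63 had the largest difference in both tests, 2.85 ± 0.26 more than in the epididymis (adjusted p = 7.5e-05 in limma) and 3.09 ± 0.26 more than in the efferent duct (adjusted p = 2.16e-05). Its own changes there were 0.21 and -0.03. Its difference was 0.23 and 0.34 with the probe set chosen over the 20 other arrays, and neither was then called. Cers3, a ceramide synthase of epithelial barriers, rose by 1.01 in the vas deferens and changed by -0.05 in the epididymis and 0.07 in the efferent duct. Marchf11 and Gabrb1 fell in the vas deferens while the epididymis changed by 0.32 and 0.52, neither of them called there. Enpep, a peptidase that cleaves angiotensin, was the 1 gene called in opposite directions, from 0.47 and 0.55 to -0.48 and -0.07 in the vas deferens (-0.79, adjusted p = 0.00379) against a rise of 0.72 (adjusted p = 0.0127) in the efferent duct. Enpep in the vas deferens was not called without E18.5 replicate 2 (-0.75) or P1 replicate 1 (-0.59), and its difference from the efferent duct passed in each run that left out 1 array.

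A single probe set stood for each gene, which bears on many of these values. Of the 195 called genes 110 have several, and among their 212 other probe sets 154 changed with the same sign. Tested singly, 26 of the 212 were called the same way and 1 the opposite way, where 0.724% of all 45037 probe sets were called.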

How the data were processed

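Per the labels, biotin-labelled total RNA extracted with Trizol was hybridised to the arrays, and per the submitters' processing notes values were computed by RMA (version not given in the sources used here). Linear ratios were deposited, and in 99.96% of 45101 probe sets their median across all 24 arrays is 1 within 1e-04. They were taken to log2, with no filter and no renormalization. The authors' ratios hold no levels, so signal over background cannot be given, and precision is limited by how many arrays there are. A gene was represented by its probe set of largest variance over the 24 arrays. Limma 3.58.1 in R 4.3.3 fitted 12 group means (12 residual and 5.38 prior degrees of freedom), with two-sided tests and Benjamini-Hochberg adjustment over the 18193 genes at 0.05, and was tested on simulated data. Replicate numbers were used as names only, since the labels give them no shared source.

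The members, gene lists and the naming rule were chosen with earlier results of these data known. Genes were named if among the 15 strongest called rises or falls, the 5 strongest called differences between segments in each direction, or up to 5 called members of each list, with any member of lists of at most 25 genes. Predicted genes and families of shared sequence were skipped in the first 2 parts. Other members of longer lists, and Cirbp, Dubr, Senp6, 1500011B03Rik, Stat5a and Slco2a1, were named after their values were seen. Of 962 list symbols 70 were not matched. Probe sets with several symbols (932), with none (9160) and controls (64) were left out. Promoter windows came from RefSeq, GRCm38.p6. Alternatives were other normalizations, probe sets, arrays, weights and covariates.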

Additional observations from a re-analysis of the deposited data

Results flagged for a closer look

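The test of the difference between segments passed for 5 genes against the epididymis and 19 against the efferent duct in limma, and these counts and the named genes behind them are given here as values. Against the epididymis the vas deferens change was larger for Trp63 (difference 2.85) and Cers3 (1.07), and lower for Marchf11 (-1.54), Gabrb1 (-1.40) and Enpep (-1.23). Against the efferent duct the named differences were Trp63 (3.09), Spink8 (1.70), Pate6 (1.52), Abcc4 (1.49) and Elf5 (1.49) in the higher direction. In the lower direction they were A2m (-1.66), Gabra4 (-1.58), Enpep (-1.51), Gad1 (-1.23) and H2-Aa (-1.23). H2-Aa, a class II antigen presentation gene, changed by 0.02 in the vas deferens and rose by 1.25 in the efferent duct. Spink8 rose in the vas deferens and changed by -0.58 in the efferent duct, where it was not called. Without single arrays the counts ran from 3 (without epididymis E18.5 replicate 1) to 15 (without vas deferens P1 replicate 2) and from 6 (without vas deferens E18.5 replicate 2, efferent duct E18.5 replicate 1 or efferent duct P1 replicate 2) to 38 (without vas deferens P1 replicate 2). With the probe set chosen over the 20 other arrays, the differences from the efferent duct were 0.34 for Trp63 and -0.097 for Elf5.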

How the results depend on the processing

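The 195 calls in the vas deferens became 29 with quantile normalization, 61 with the 4 arrays alone, 338 without the early efferent duct arrays and 555 with the Gapdh 5′ covariate, and 60 to 211 when 1 array was left out. The 16 falls of the hypoxia list became 4 with quantile normalization and 6 with the 4 arrays alone, and 7 to 14 without 1 array. The 5 differences from the epididymis became 29, 19 and 21 with quantile normalization, array weights and the covariate, and 3 to 15 without 1 array. The 19 from the efferent duct became 4, 40 and 86 with the same settings, 38 without the early efferent duct arrays, 6 with the 8 arrays of both segments alone, and 6 to 38 without 1 array. Runs with fewer arrays have fewer residual degrees of freedom. Otherwise the cause was not tested.

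Elf5 turned to -0.031 in the vas deferens and -0.097 against the efferent duct, and Bub1 to -0.48, with the probe set chosen over the 20 other arrays. H2-Aa, not called in the vas deferens (0.02), ran from -0.038 without E18.5 replicate 2 to 0.081 without E18.5 replicate 1, and was -0.0091 without P1 replicate 1. Over 72 genes named for the vas deferens and 1075 runs, 834 kept direction and side of the threshold, 237 lost the call and 4 turned. A2m, Abcc4, Ak4, Angptl4, Bnip3, Cers3, Egln3, G6pc2, Gstm2, Marchf11, Nrxn3, Pate6, Perp, Sgms2 and Slc2a1 kept their call in every run. With the replicate block the count was 192, of which 182 were shared, and Cldn4, Cdkn1a, Nfkbia and Gpm6a lost their calls. Deviations of the vas deferens arrays with the same number correlated at 0.197, a single value with 2 arrays a group, so the numbers were not used to pair them. No level or detection can be read from ratios.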

Other observations

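Probe sets that name no single gene were tested too. Of 9160 with no symbol, 18 were higher and 24 lower at P1 in the vas deferens, and of 932 with several symbols 5 were higher and 15 lower, at an adjusted p below 0.05 over all 45037 probe sets in limma, of which 326 (0.724%) were called in either direction. No gene is named from them.

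Stat5a, a signal transducer of growth hormone and prolactin, and Slco2a1, a prostaglandin transporter, were noticed after their values were seen. Stat5a changed by 1.07 in the vas deferens, 0.48 in the epididymis and -0.01 in the efferent duct. Slco2a1 changed by 0.94, -0.01 and -0.08.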
